A study of Mus musculus with 2 samples.

Results

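The metabotropic glutamate receptor genes Grm2, Grm3, Grm4, Grm5, Grm7 and Grm8 were followed across the cell clusters of a single-nucleus RNA-seq of mouse brainstem. They were chosen by name, as 6 of the 8 Grm genes and of the 25556 genes in the count table, and the other 2 Grm genes were not analysed here. One library came from a wild-type (WT) mouse. The other came from a heterozygous littermate (HET) with the A1783V missense allele of Scn1a, which encodes a voltage-gated sodium channel subunit, a model of Dravet Syndrome, a childhood epilepsy. Both mice were female, 41 days old, untreated and on a C57Bl6 background. The allele was released from a floxed stop by Sox2-Cre, which acts in the early embryo, so it is not limited to one cell type. Each genotype was 1 library with no replicate, so the differences below compare 2 libraries and not 2 genotypes, and no test was run. All intervals cover counting error only, at 95%.

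These receptors are G protein-coupled receptors that sense glutamate and adjust synapses more slowly than the glutamate-gated channels. Grm5 encodes a group I receptor, which couples to Gq and phospholipase C and usually sits on the postsynaptic side. The group II genes Grm2 and Grm3 and the group III genes Grm4, Grm7 and Grm8 encode receptors that couple to Gi/o, lower cyclic AMP and often act as brakes on transmitter release from the presynaptic side. Grm3 and Grm5 are also well known from astrocytes.

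The WT library held 9259 nuclei and 70301390 unique molecular identifiers (UMIs, counted RNA molecules), and the HET library 9022 nuclei and 66176778 UMIs. Neuronal clusters made up 66.1% of WT and 59.8% of HET nuclei, and 23 barcode sequences occurred in both libraries. Scn1a itself was counted at 380 CPM (UMIs per 1000000) in the WT and 420 CPM in the HET, and such a count does not tell a missense allele from the normal one. The authors' 16 clusters were used as deposited, of which 12 held 30 nuclei or more in both libraries and were compared. Several did not hold what their names say. In micro, 108 of 405 nuclei also had the deposited reference label for microglia and 211 had that for neurons. In endo the label matched for 209 of 344 nuclei, and in fibro for 40 of 266. Of the 174 epend.1 nuclei, 50 belonged to subcluster 32, in which the oligodendrocyte precursor markers Pdgfra, Cspg4 and Vcan were at 791, 340 and 1049 CPM. Values in these clusters are therefore also read against their subclusters, from the 34 finer groups the authors deposited at resolution 0.8.

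Over all nuclei Grm7 was counted most, at 1340 CPM in the WT and 1402 CPM in the HET. Grm5 followed at 943 and 976 CPM. Grm8 stood at 361 and 502 CPM and Grm3 at 253 and 360 CPM. Grm4 was low, at 17.3 and 23.8 CPM, and Grm2 was nearly undetected, at 1.59 CPM (112 UMIs) and 1.72 CPM (114 UMIs). The members thus held very unequal shares of their 6-gene total, from 44.4% of the UMIs for Grm7 to 0.0537% for Grm2. These genes also differ greatly in length, and nuclear RNA is rich in unspliced transcripts, so levels were also set against genomic span. In GRCm38, the build of the files (mm10), Grm7 lies at chr6:110645581-111567230 on the plus strand and spans 921.6 kb. Grm8 lies at chr6:27275119-28135178 (minus strand, 860.1 kb) and Grm5 at chr7:87584168-88134907 (plus strand, 550.7 kb). Grm3 lies at chr5:9485541-9725170 (minus strand, 239.6 kb), Grm4 at chr17:27422387-27521403 (minus strand, 99.0 kb) and Grm2 at chr9:106643095-106656082 (minus strand, 13.0 kb). Per 100 kb of span Grm5 was the highest member, at 171 CPM in the WT and 177 CPM in the HET. Grm7 came next at 145 and 152 CPM, then Grm3 at 106 and 150 CPM. Grm8, at 42.0 and 58.4 CPM, was followed by Grm4 at 17.5 and 24.0 CPM and Grm2 at 12.3 and 13.3 CPM. The order of Grm5 and Grm7 therefore turned around once length was taken into account. GENCODE vM21 places an antisense gene over Grm2 and another over Grm7, and minor gene models or small RNA genes inside each of the others, with which reads could have been shared.

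Neuronal clusters held nearly all UMIs of Grm8 (95.7%), Grm5 (95.1%), Grm4 (94.7%) and Grm2 (91.6%). For Grm7 the neuronal share was 86.4%, and for Grm3 it was 56.6%. The rest of the Grm3 UMIs lay mostly in oligo (35.0%) and astro (4.73%), and oligo also held 10.7% of the Grm7 UMIs.

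**Figure D1:**
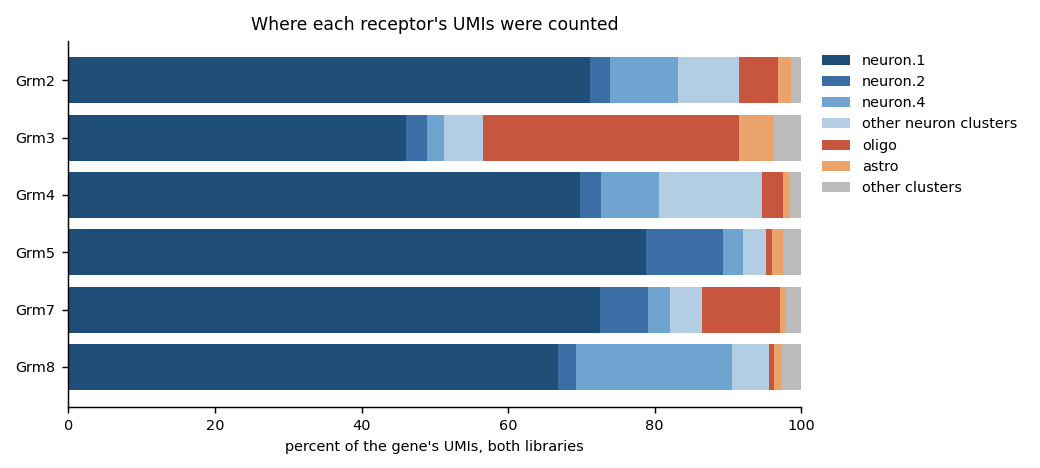
Percent of each receptor gene's UMIs (x axis, both libraries together) counted in each cluster or group of clusters, one bar per gene. Oligo took 35.0% of the Grm3 UMIs and 10.7% of the Grm7 UMIs, and neuron.4 took 21.3% of the Grm8 UMIs.

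Grm5, the group I receptor, was highest in neuron.2, at 2375 CPM in the WT and 2632 CPM in the HET. Neuron.1, the large cluster of 9111 nuclei, stood at 1085 and 1248 CPM. The level in neuron.2 was 2.19-fold that of neuron.1 in the WT (log2 1.13, 1.10 to 1.16) and 2.11-fold in the HET (log2 1.08, 1.04 to 1.12). Within neuron.1, 2 subclusters stood out. Subcluster 24, led by Cdh3, Ndnf and Rab38 and with the inhibitory genes Gad1 and Slc6a5 at 125 and 163 CPM, had 2818 CPM of Grm5 in the WT and 2935 CPM in the HET. Subcluster 9, led by Gbx1, Rab38 and Sall3, had 2422 and 2475 CPM. The remaining large neuron.1 subclusters 0, 1, 3, 5 and 10 lay between 739 and 1277 CPM. Every nucleus of subcluster 24 (119 of 119) and 743 of 747 nuclei of subcluster 9 had a Grm5 UMI. Neuron.3 and neuron.4 were lower, at 528 and 380 CPM in the WT and 482 and 541 CPM in the HET.

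Outside the neuronal clusters, Grm5 was also counted in several others. In astro it was at 381 CPM in the WT and 426 CPM in the HET. A UMI was seen in 48.1% of astro nuclei (45.4 to 50.8%, median depth 3165 UMIs), against 18.2% of the nuclei called endothelial by both labels (13.2 to 24.1%, median depth 2220 UMIs), a type not known for this gene. After thinning each nucleus to 2000 UMIs the shares were 38.1% and 13.2%. In subcluster 32, the nuclei with oligodendrocyte precursor markers, Grm5 reached 1407 CPM in the WT (143 UMIs in 47 nuclei), close to the neuronal level, and 45 of its 50 nuclei had a UMI. The deposited reference label called 47 of these 50 nuclei neurons. The HET library held 3 nuclei of subcluster 32. The ependymal subcluster 23, led by Dnah12, had 374 CPM in the WT and 541 CPM in the HET (121 and 119 UMIs). The high value of micro, 910 and 1162 CPM, came from subcluster 18, which had 1370 and 1725 CPM. All 185 nuclei of subcluster 18 were labelled neurons. The 108 micro nuclei labelled microglia had 102 CPM (64.7 to 153). In oligo Grm5 stood at 72.9 and 91.2 CPM, with a UMI in 19.5% of nuclei. After thinning to 2000 UMIs that share was 13.6%, close to the 13.2% of the endothelial nuclei. The neuron markers Rbfox3, Snap25, Syt1 and Meg3, all 4 detected there, summed to 1252 and 1726 CPM in oligo. At the ratio of Grm5 to these markers in neuron.1, sums of that size go with 98.9 and 159 CPM of Grm5. In subcluster 23 the 4 neuron markers were at 57.0, 311, 353 and 4123 CPM, and in subcluster 32 at 27.6, 239, 129 and 1748 CPM. Of the 264 WT and 121 HET Grm5 UMIs of epend.1, the cluster of subclusters 23 and 32, 143 and 2 lay in subcluster 32. In the whole of epend.1 the neuron markers go with 246 and 628 CPM of Grm5, against 621 and 533 CPM counted. The part of neuronal RNA in these and the following values of this kind was not tested, since they assume the ratio of 1 cluster.

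Grm3, a group II receptor, had a different distribution. Among the 12 clusters it was highest in oligo in both libraries, at 864 CPM in the WT and 1208 CPM in the HET, against 190 and 231 CPM in the neuronal clusters together. Oligo was thus 4.55-fold (log2 2.19, 2.14 to 2.23) and 5.23-fold (log2 2.39, 2.35 to 2.43) higher. A Grm3 UMI was seen in 83.7% of oligo nuclei (82.5 to 84.8%), in 20.6% of nuclei with both endothelial labels and in 13.0% of those with both microglial labels. At the marker ratio above, the neuron markers go with 17.8 and 30.6 CPM in oligo. Astro followed at 374 and 453 CPM, with a UMI in 57.9% of nuclei. The compared neuronal clusters ranged from 69.9 CPM in neuron.5 to 195 CPM in neuron.1 in the WT, and from 147 CPM in neuron.7 to 266 CPM in neuron.2 in the HET. Within neurons, subcluster 24 was again high, at 720 and 624 CPM, which was 3.87-fold and 2.65-fold the rest of neuron.1. Subcluster 9 reached 383 and 399 CPM.

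The highest Grm3 level of all was in a vascular subcluster. Subcluster 29, with 86 of its 88 nuclei in endo, was led by Atp13a5, Abcc9, Carmn and Pdgfrb, genes known from mural cells of small vessels such as pericytes, and its endothelial markers Flt1 and Cldn5 were at 170 and 38.8 CPM against 3044 and 2088 CPM in subcluster 17. A few nuclei of subclusters 17 and 29 were in neuron.1, so the 2 were compared over their endo nuclei. In subcluster 29 Grm3 stood at 2009 CPM in the WT (207 UMIs) and 2420 CPM in the HET (212 UMIs). In subcluster 17, the main endothelial one, it had 147 and 292 CPM, so subcluster 29 was 13.7-fold (log2 3.78, 3.40 to 4.16) and 8.28-fold (log2 3.05, 2.65 to 3.46) higher. Grm7 had a like difference, at 2096 and 3642 CPM in subcluster 29 against 272 and 430 CPM in subcluster 17. Of all 88 nuclei of subcluster 29, 77 had a Grm3 UMI. The deposited reference label called 58 of the 88 nuclei of subcluster 29 neurons. Rbfox3, Snap25, Syt1 and Meg3 were at 58.2, 252, 247 and 3211 CPM in subcluster 29. In its endo nuclei Grm5 was at 136 and 160 CPM and Grm8 at 19.4 and 126 CPM, under the levels of these genes in neuron.1. The part of neuronal RNA in subcluster 29 was not tested. Its median depth was 1997 UMIs.

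Grm2, the other group II gene, was too sparse to describe in most clusters. Its highest level was in neuron.6, a cluster of 120 WT and 5 HET nuclei led by Ano2, Pou4f1, Foxp2 and Htr5b, at 8.37 CPM in the WT (14 UMIs). Neuron.1 had 1.62 CPM (1.28 to 2.02) and 2.04 CPM (1.63 to 2.53). Of all neuronal nuclei 1.74% had a Grm2 UMI, and 0.474% did after thinning to 2000 UMIs. Of the 209 nuclei with both endothelial labels 1 had a Grm2 UMI, too few to set a background.

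Among the group III genes, Grm7 was the broadest. It was highest in neuron.2, at 2140 CPM in the WT and 2282 CPM in the HET, followed by neuron.1 at 1458 and 1601 CPM. Oligo followed at 1352 and 1531 CPM. The level in oligo differed little from that of the neuronal clusters together, by a log2 ratio of -0.06 (-0.10 to -0.03) in the WT and 0.07 (0.04 to 0.10) in the HET. At the marker ratio of neuron.1, the neuron markers in oligo go with 133 and 204 CPM of Grm7. A UMI was seen in 90.0% of neuronal and 70.9% of oligo nuclei at median depths of 8055 and 2807 UMIs, and in 30.1% of nuclei with both endothelial labels. After thinning to 2000 UMIs these shares were 77.0%, 65.2% and 25.9%.

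Grm7 and Grm3 both divided the oligo cluster. Subcluster 2, led by genes that include Enpp6 and Anln, had a Grm7 level of 572 CPM in the WT and 534 CPM in the HET. Subclusters 6, 7 and 8 together had 2033 and 2103 CPM, which is 3.55-fold and 3.94-fold higher. Grm3 moved in the same direction, with 540 and 748 CPM in subcluster 2 and 1146 and 1472 CPM in the other three, which is 2.12-fold and 1.97-fold higher. The myelin gene Mog ranged between 806 and 1014 CPM over these 4 subclusters. Subclusters 6 and 8 were nearly library-specific, with 39 WT and 827 HET nuclei in the former and 825 WT and 35 HET nuclei in the latter, but subcluster 2 (768 and 789 nuclei) was shared evenly and was lower in both libraries.

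Neuron.1 held 66.8% of the Grm8 UMIs and neuron.4 21.3%. Among the compared clusters the level was highest in neuron.4, which had the vesicular glutamate transporter gene Slc17a7 among its leading genes. There Grm8 stood at 1489 CPM in the WT and 1848 CPM in the HET. That was 3.76-fold and 3.75-fold the level of neuron.1, and 447 of 453 nuclei had a UMI. No other compared cluster exceeded 493 CPM. A still higher level was found in subcluster 33, at 2150 CPM in the WT (38 UMIs, 6 nuclei) and 2350 CPM in the HET (323 UMIs, 37 nuclei), with a UMI in all 43 nuclei. Its Eomes (168 CPM) and Lmx1a (612 CPM) are genes known from unipolar brush cells, small glutamatergic interneurons of the cochlear nucleus and cerebellum. Grm8 was also at 363 CPM (306 to 428) in the 108 WT nuclei of epend.2, which had the choroid plexus markers at 18119 CPM in sum. In oligo it was at 23.6 and 39.4 CPM, and the neuron markers go with 36.2 and 62.9 CPM at the ratio of neuron.1.

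Astro split into subclusters with contrasting receptors. The largest, subcluster 4, held 1073 nuclei, 1062 in astro and 11 in neuron.1, and its values include both. With Slc1a2 at 3088 CPM, it had Grm5 at 448 CPM in the WT and 491 CPM in the HET. Its Grm7 was at 123 and 119 CPM and its Grm8 at 92.3 and 38.7 CPM. Subcluster 19, with 142 nuclei and led by Myoc, Gfap, C4b, Aqp4 and Cd44, had the reverse. Its Grm7 was at 758 and 886 CPM, which is 6.18-fold and 7.47-fold that of subcluster 4. Its Grm8 was at 684 and 579 CPM, with log2 ratios over subcluster 4 of 2.89 (2.56 to 3.22) and 3.90 (3.49 to 4.32). Its Grm5 was at 130 and 76.7 CPM, which is 3.46-fold and 6.41-fold lower. Grm3 differed less, at 208 and 247 CPM against 303 and 409 CPM in subcluster 4. Both subclusters were labelled astrocytes for most nuclei (1051 of 1073 and 134 of 142), and their median depths were 3114 and 2867 UMIs. The third astro subcluster, 26, had Mog at 513 CPM beside its astrocyte genes. Its Grm3 (726 and 871 CPM) and Grm7 (1086 and 1199 CPM) were above those of subclusters 4 and 19 and under those of oligo.

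Grm4 was low in every cluster of the WT, and in the HET it was highest in neuron.5. In that cluster it stood at 19.1 CPM in the WT (3.93 to 55.7, 3 UMIs in 42 nuclei) and 104 CPM in the HET (87.2 to 123, 133 UMIs in 332 nuclei). The main part of this cluster was subcluster 15, whose leading genes included the granule cell markers Gabra6, Fat2 and Cbln3. There Grm4 was at 22.8 CPM (3 UMIs) and 120 CPM (99 UMIs), and 58 of 282 nuclei had a UMI at a median depth of 2999 UMIs. The other 5 compared neuronal clusters lay between 14.6 and 43.3 CPM. Of the nuclei with both endothelial labels, 0 of 209 had a Grm4 UMI, which allows a share of nuclei with a UMI of up to 1.44%.

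**Figure D2:**
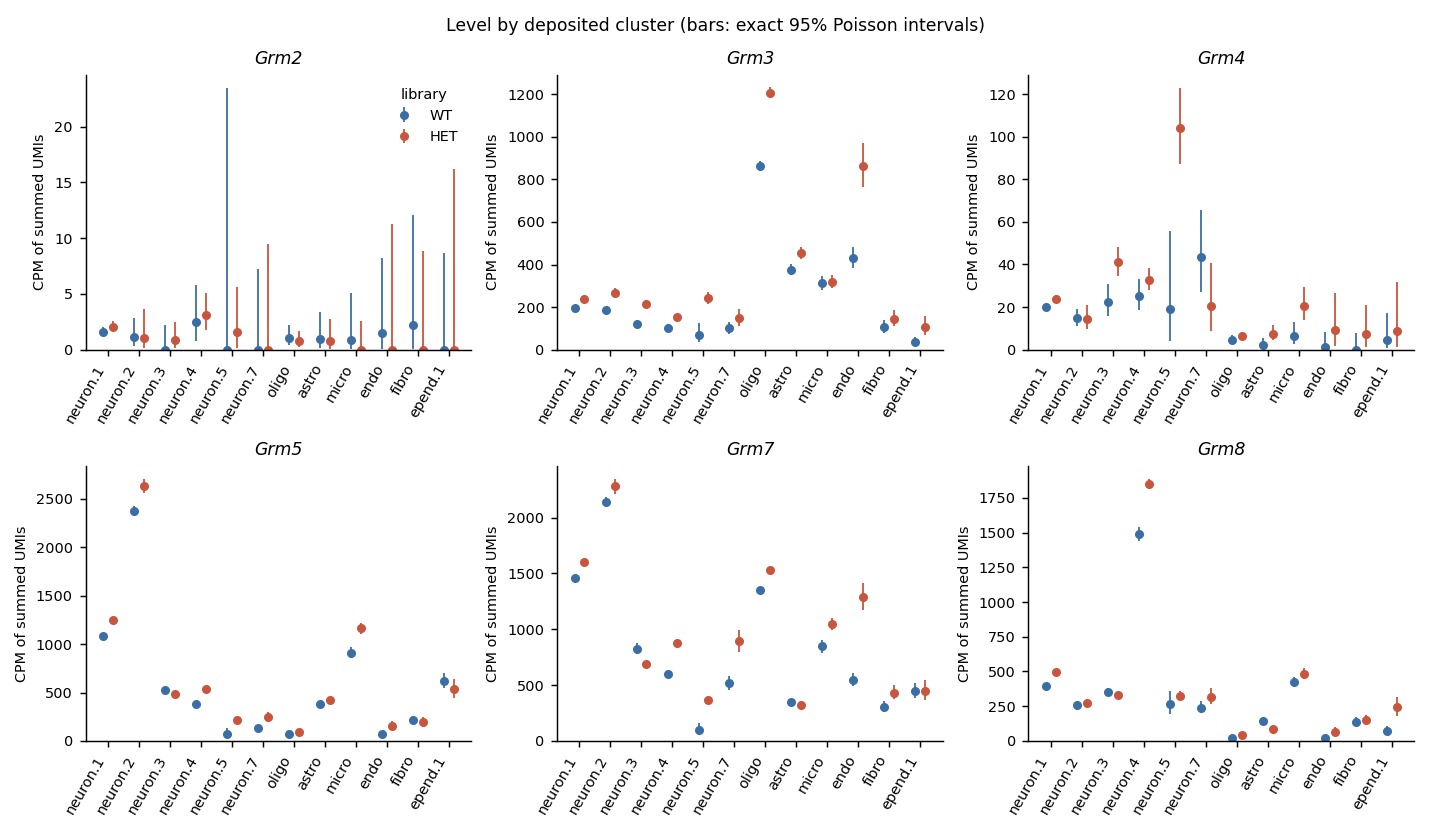
CPM of the UMIs summed over each cluster (y axis, linear from 0) for the 6 genes in the 12 compared clusters, blue for WT and red for HET, with exact Poisson intervals. Grm3 peaks in oligo (864 and 1208 CPM), Grm5 and Grm7 in neuron.2, Grm8 in neuron.4 (1489 and 1848 CPM) and Grm4 in the HET nuclei of neuron.5 (104 CPM).

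**Figure D3:**
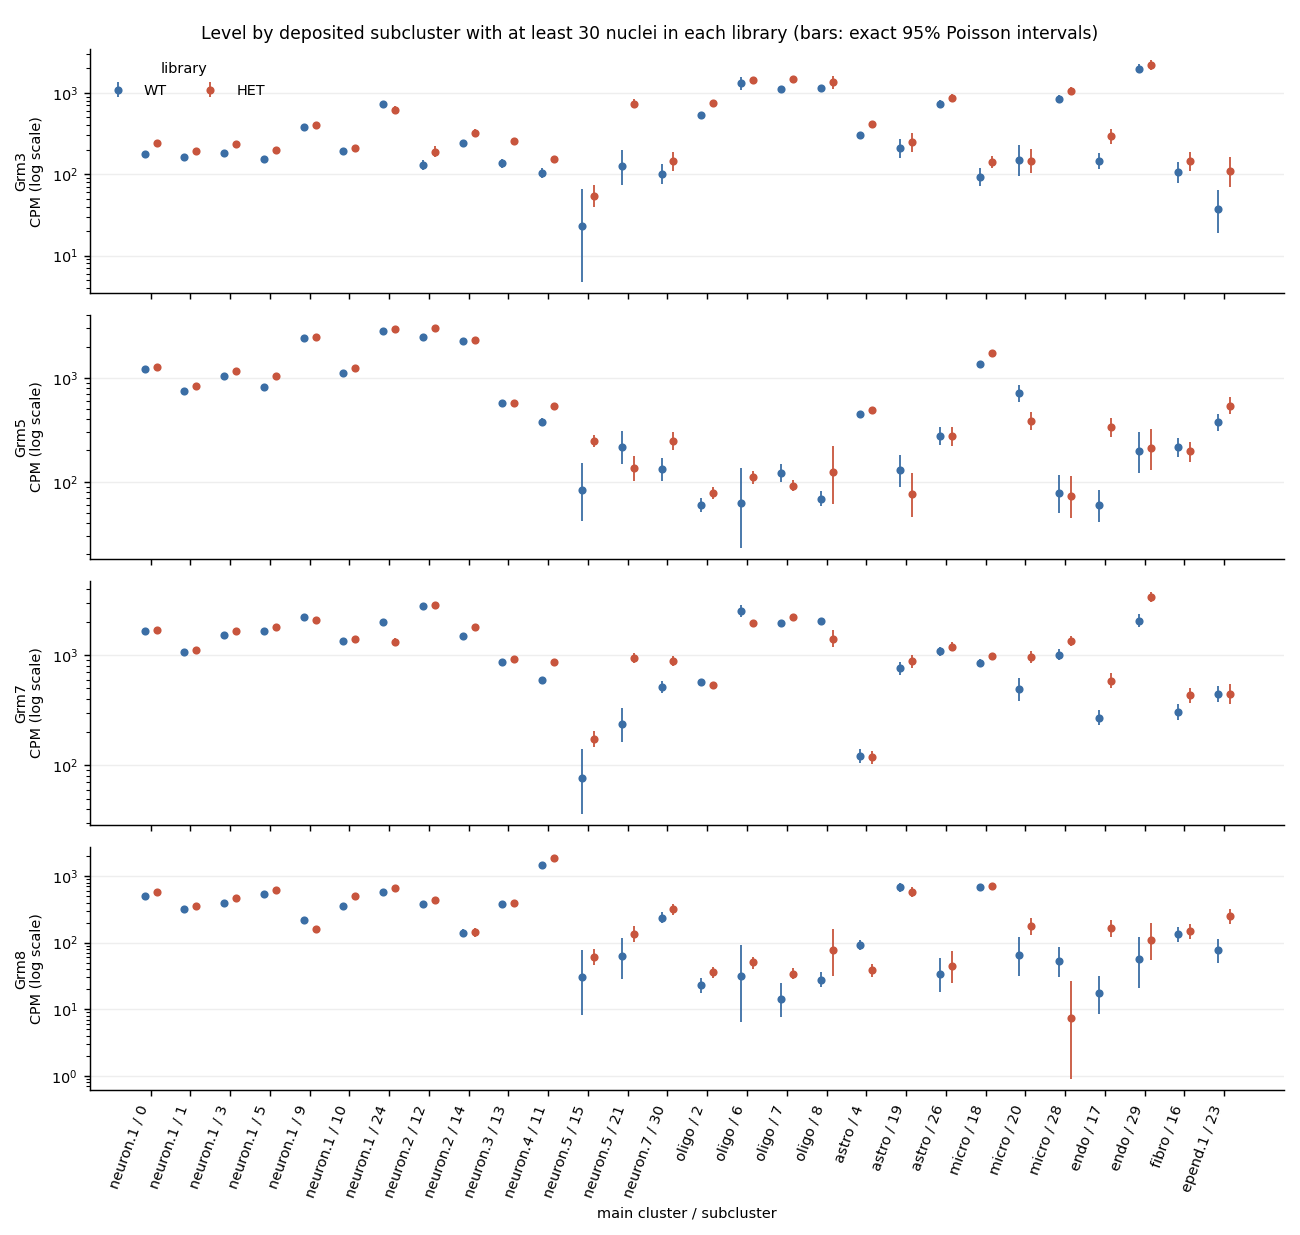
CPM (y axis, log scale) of Grm3, Grm5, Grm7 and Grm8 in the 28 subclusters that hold 30 nuclei or more in both libraries, grouped by the cluster that holds most of their nuclei, blue for WT and red for HET, with exact Poisson intervals. Subclusters 4 and 19 of astro carry opposite levels of Grm5 against Grm7 and Grm8, and subcluster 29 of endo has the highest Grm3 (1991 and 2188 CPM).

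Neurons were also divided by transmitter genes, into nuclei with at least 5 UMIs of the vesicular glutamate transporter genes and at least 5 times as many of these as of Slc32a1, Gad1, Gad2 and Slc6a5, and the reverse. This kept 134 WT and 225 HET glutamatergic nuclei, with median depths of 17564 and 15332 UMIs, and 1107 and 785 inhibitory nuclei, with 12196 and 11610 UMIs. Grm8 was higher in the glutamatergic nuclei, at 715 against 367 CPM in the WT (log2 ratio 0.96, 0.89 to 1.03) and at 858 against 459 CPM in the HET (0.90, 0.84 to 0.97). The other well-counted members were higher in the inhibitory nuclei of this split, in both libraries. For Grm3 the log2 ratio of glutamatergic over inhibitory was -0.76 and -0.52. It was -0.26 and -0.62 for Grm5 and -0.44 and -0.69 for Grm7. Whole clusters did not all follow this split. Neuron.2, the compared cluster with the highest Grm5 and Grm7, had the 3 vesicular glutamate transporter genes at 163 and 190 CPM in sum. Its 4 inhibitory genes summed to 58.4 and 50.4 CPM, and its Grm8 (259 and 272 CPM) was under that of neuron.1. In neuron.4, highest in Grm8, the sums were 195 and 180 CPM against 30.1 and 18.7 CPM. Grm4 was at 23.6 against 19.5 CPM in the WT, with an interval of the log2 ratio from -0.12 to 0.65, and at 35.8 against 27.8 CPM in the HET, from 0.07 to 0.66.

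Most neurons held several of these receptors at once. Of the 11511 neuronal nuclei, 37.3% had UMIs of 4 members, 34.2% of 3 and 1.17% of none. In oligo the commonest number was 2, in 52.0% of nuclei. Over 24 points, the 12 clusters in each library, log2(CPM + 1) of Grm8 correlated most with that of Grm4 among the members (Pearson r = 0.63, Spearman rho = 0.71), and that of Grm3 ran against Grm8 (r = -0.48, rho = -0.31). Points of one cluster share their cell type and points of one library share its preparation, so these values describe the pattern and are not tests. Among 11648 genes with at least 1000 UMIs, the 3 most like Grm3 were Ppp1r16b (r = 0.865), Hmgn2 (0.856) and Ptk2 (0.849). For Grm5 they were Epha5 (0.873), an ephrin receptor gene, Tcerg1l (0.860) and Ano5 (0.845). Those of Grm7 were Sh3kbp1 (0.813), Strn4 (0.774) and B3galt5 (0.754). Grm8 was followed by Gm43713 (0.911), Osbpl6 (0.908) and Camta1 (0.908), and Grm4 by Gm49191 (0.871), Kif5a (0.865), a neuronal kinesin gene, and Gm28379 (0.861). Grm2 was under the minimum count.

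The second question was how the receptors differed between the HET and the WT library. Over all nuclei the 6 members were counted higher in the HET, as were 9031 of the 21997 genes with at least 20 UMIs. None of the 6 differed by 1.5-fold or more, a size that 10.9% of those genes exceeded upward and 15.3% downward. Grm3 differed most, with a log2 ratio of 0.51 (0.48 to 0.54), followed by Grm8 at 0.48 (0.45 to 0.50) and Grm4 at 0.46 (0.35 to 0.57). Grm7 and Grm5 differed by 0.07 (0.05 to 0.08) and 0.05 (0.03 to 0.07), and Grm2 by 0.11 (-0.28 to 0.50). The median log2 ratio of the 16347 genes with at least 200 UMIs was -0.10. With that median set to 0, Grm3 stood at 0.61, Grm8 at 0.58 and Grm4 at 0.56.

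Ratios went with gene length over all genes. The median log2 ratio was -0.36 for genes that span under 10 kb, -0.11 for 10 to 100 kb, 0.10 for 100 to 500 kb and 0.13 for 500 kb or more. Grm5 and Grm7 were thus under the median of the longest genes, and the upper quartile of that group was 0.21. Grm8, at 0.48, was above that quartile, and Grm3 was above the upper quartile of 0.24 of its own group.

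**Figure D4:**
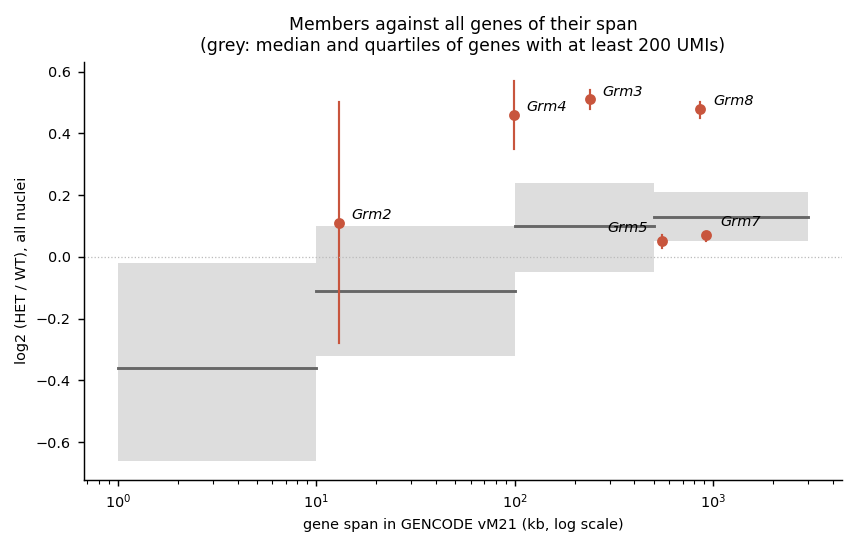
Log2 ratio of HET over WT over all nuclei (y axis) of the 6 genes against their genomic span in kb (x axis, log scale), as red points with exact intervals. Grey lines and bands give the median and quartiles of all genes with at least 200 UMIs in 4 classes of span. Grm3, Grm4 and Grm8 lie above their bands, Grm2 (0.11) lies just above its band with an interval that spans it, and Grm5 and Grm7 lie under the median of 0.13 of the longest genes.

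Within the clusters, 59 pairs of a member and a cluster had at least 20 UMIs, and the HET was higher in 49 of them and lower in 10. Over all genes 43.1% of such pairs were higher in the HET, and 66.4% over genes that span at least 100 kb. The difference was at least 1.5-fold upward in 17 of the 59 pairs, or 28.8%, and downward in 2, against 11.5% and 17.5% of the 138608 pairs of all genes and 15.9% and 4.83% of the pairs of long genes.

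Grm3 was higher in the HET in all 12 clusters, with an interval above 0 in 9 of them and a median log2 ratio of 0.53. In oligo, with 5049 and 9528 UMIs, the log2 ratio was 0.48 (0.43 to 0.53). It was 0.34 with the subclusters weighted by their share of the UMIs of both libraries. By subcluster it was 0.47 (0.37 to 0.57) in subcluster 2 and 0.42 (0.32 to 0.52) in subcluster 7. In subclusters 6 and 8, each with under 40 nuclei in 1 library, it was 0.13 (-0.13 to 0.40) and 0.25 (-0.03 to 0.51). In neuron.1 it was 0.30 (0.26 to 0.34), in neuron.2 0.51 (0.35 to 0.68), in neuron.4 0.56 (0.34 to 0.79) and in astro 0.28 (0.14 to 0.41). The 1.5-fold size was passed in neuron.3 (0.83, 0.60 to 1.06), neuron.5, endo and epend.1. Of 28 subclusters, 26 were higher in the HET and 17 had an interval above 0. The exceptions to the direction were subcluster 24, at -0.21 (-0.41 to -0.01), and subcluster 20, at -0.03. The endo value of 1.00 (0.76 to 1.24) became 0.48 with subclusters weighted by their share of the UMIs of both libraries. Among endo nuclei it was 0.99 (0.52 to 1.47) in subcluster 17 and 0.27 (-0.01 to 0.55) in subcluster 29. The neuron markers at the ratio of neuron.1 go with 20.2 and 56.8 CPM of Grm3 in endo, against 431 and 862 CPM counted. In epend.1 they go with 44.1 and 121 CPM, against 37.6 and 106 CPM counted. In neuron.5 the oligodendrocyte markers Mog, Mag and Mobp were at 261 CPM in the WT and 544 CPM in the HET in sum. At the ratio of oligo these go with 82.2 and 219 CPM of Grm3. The levels counted were 69.9 CPM (34.9 to 125) and 242 CPM (216 to 270). For Grm7 the markers go with 129 and 278 CPM, against 95.4 CPM (53.4 to 157) and 363 CPM (331 to 398) counted. The part of oligodendrocyte RNA in either result was not tested.

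Grm8 was higher in the HET in 10 of 12 clusters, with an interval above 0 in 7. The values included neuron.1 (397 and 493 CPM, log2 ratio 0.31, 0.29 to 0.34) and neuron.4 (0.31, 0.25 to 0.37), and neuron.2 and neuron.3 had 0.07 and -0.10 with intervals across 0. Subcluster 9 of neuron.1 went the other way, at 222 and 161 CPM (-0.47, -0.64 to -0.30). In astro Grm8 was lower in the HET, at 146 CPM (130 to 163) against 86.8 CPM (75.9 to 98.9), a log2 ratio of -0.75 (-1.01 to -0.50). This lay in subcluster 4, at 92.3 and 38.7 CPM (142 and 79 UMIs, -1.25, -1.67 to -0.85), values that include its 11 neuron.1 nuclei. Subcluster 19 had -0.24 (-0.57 to 0.09). The choroid plexus markers Ttr, Folr1, Kl and Clic6 were at 641 CPM in WT astro and 73.0 CPM in HET astro. At the ratio of epend.2 they go with 12.9 and 4.70 CPM of Grm8, against the 146 and 86.8 CPM counted. The neuron markers were at 1278 CPM in WT and 1637 CPM in HET astro. The part of choroid plexus or neuronal RNA in this difference was not tested. In endo and epend.1 Grm8 was higher in the HET (17.8 and 64.2 CPM, and 75.3 and 242 CPM), and so were the 4 neuron markers, at 1422 and 3203 CPM in endo and 3108 and 6802 CPM in epend.1. At the ratio of neuron.1 these go with 41.1 and 117 CPM of Grm8 in endo and 89.8 and 248 CPM in epend.1, and their part in these differences was not tested. In subcluster 23 Grm8 was at 77.3 and 250 CPM, and in the endo nuclei of subcluster 17 at 17.5 and 41.7 CPM (10 UMIs each, log2 ratio 1.26, -0.16 to 2.68).

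Grm5 and Grm7 differed less in the large clusters. In neuron.1 the log2 ratio was 0.20 (0.18 to 0.22) for Grm5 and 0.13 (0.12 to 0.15) for Grm7. With subclusters weighted by their share of the UMIs of both libraries it was 0.13 and 0.05. Neuron.4 had 0.51 (0.39 to 0.63) and 0.55 (0.45 to 0.64). Neuron.7, the cluster led by the serotonergic genes Tph2 and Slc6a4, had 0.91 (0.44 to 1.38) and 0.79 (0.55 to 1.03), from 46 WT and 33 HET nuclei. In neuron.3 Grm7 was lower in the HET, at 828 and 691 CPM (-0.26, -0.36 to -0.16). Its subcluster 27, with 14 WT and 100 HET nuclei, had 174 and 224 CPM, and within subcluster 13 the ratio was 0.09 (-0.01 to 0.18), so the lower level of the whole cluster was not seen within either subcluster. In oligo Grm7 was at 0.18 (0.14 to 0.22), but at -0.12 with subclusters weighted by their share of the UMIs of both libraries. The single subclusters ran from -0.53 (-0.80 to -0.28) in subcluster 8 to 0.18 (0.11 to 0.26) in subcluster 7. In endo and neuron.5 both genes were past 1.5-fold upward. The log2 ratios in endo were 1.13 (0.54 to 1.73) for Grm5 and 1.23 (1.02 to 1.43) for Grm7, where the median of the 84 genes of 500 kb or more was 0.80. Its neuron markers go with 112 and 296 CPM of Grm5, against 71.0 and 156 CPM counted, and with 151 and 379 CPM of Grm7, against 550 and 1290 CPM counted. Among endo nuclei of subcluster 17 the ratios were 1.38 (0.67 to 2.10) for Grm5 and 0.66 (0.29 to 1.03) for Grm7.

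Grm4 passed 1.5-fold upward in neuron.3 (22.5 and 41.1 CPM, log2 ratio 0.87, 0.34 to 1.43), neuron.5, astro (5 and 19 UMIs) and micro (7 and 29 UMIs, of which 6 and 19 lay in subcluster 18), and downward in neuron.7 (22 and 8 UMIs, -1.07, -2.45 to 0.15). In neuron.1, with 972 and 973 UMIs, its log2 ratio was 0.25 (0.12 to 0.38). The neuron.5 value of 2.45 (0.87 to 4.74) rested on 3 WT UMIs. Grm2 had 20 UMIs in 2 clusters, neuron.1 (0.34, -0.13 to 0.80) and neuron.4 (0.33, -1.18 to 2.14).

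**Figure D5:**
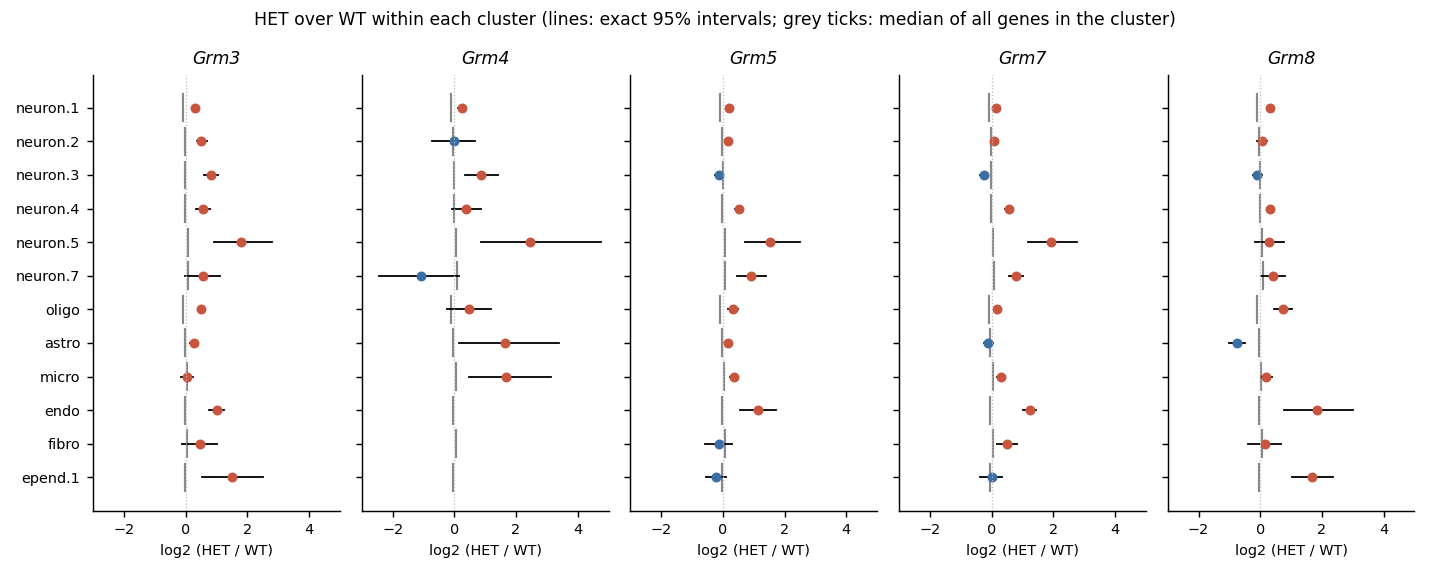
Log2 ratio of HET over WT (x axis) of 5 members in the 12 compared clusters (y axis), with exact intervals as black lines, red points for a higher and blue points for a lower HET level, and grey ticks at the median of all genes in the cluster. Grm3 is on the higher side in all 12 clusters, and Grm8 in astro (-0.75) and Grm7 in neuron.3 (-0.26) lie on the lower side with intervals clear of 0.

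Genes that act with these receptors were taken from 4 lists. Of all 21997 genes with at least 20 UMIs, 9031 were higher in the HET. Of the 12 Gq arm genes, which carry the signal of Grm5 through Gq, phospholipase C and the Homer scaffolds, 10 were higher in the HET and 2 lower, with a median log2 ratio of 0.16 against -0.09 for all genes with at least 20 UMIs. Gna11, a Gq-family alpha subunit, was lower (1234 and 700 UMIs, -0.73, -0.87 to -0.60). The 13 Gi/o arm genes, which hold the G proteins, adenylyl cyclases and GIRK channels of the other members, had the same median of 0.16, with 9 higher and 4 lower. They ran from Gnai2, a Gi alpha subunit (1787 and 1102 UMIs, -0.61, -0.72 to -0.50), to Kcnj6, a GIRK channel subunit (5423 and 7262 UMIs, 0.51, 0.46 to 0.56). Of 12 scaffold and adhesion genes in the table, 6 were higher and 6 lower, with none past 1.5-fold and a median of 0.01, from Pick1 (-0.21) to Shank2 (0.28). The 10 genes of glutamate uptake and recycling were 5 higher and 5 lower. Slc38a2, an amino acid transporter that takes up glutamine, was lower (18391 and 9698 UMIs, -0.84, -0.87 to -0.80), and Slc1a3, an astrocytic glutamate transporter, was higher (2020 and 2858 UMIs, 0.59, 0.51 to 0.67).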

How the data were processed

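Nuclei from frozen, PBS-perfused brainstem were sequenced as 10x Genomics 3′ libraries, 1 per genotype. The authors deposited raw UMI counts, one value for each gene in each nucleus, made with Cell Ranger (version not stated) on mm10 and filtered in Seurat 4.1, as named in the submitters' processing notes. Nuclei called doublets by the authors had been removed. The deposited doublet score of the remaining nuclei, the clusters, subclusters and reference labels were used as given. The setting for intronic reads is not given in the sources used here.

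UMIs were summed per library and cluster and divided by the cluster's total (CPM). Intervals are exact Poisson for levels, exact conditional binomial for ratios and Clopper-Pearson for shares, at 95%, and the limit for 0 nuclei is 3 counts. A difference was counted past 1.5-fold with at least 20 UMIs over both libraries, and a library at 0 was set to 3 counts. Ratio intervals were tested on simulated Poisson counts with 200 changed genes, of which 94.0% were covered. The intervals assume such counts, so this checks their calculation and not variation between nuclei or animals. The comparison over endo nuclei was added after seeing the data. Levels that go with another type's markers scale the source cluster's level by summed marker CPM. The members and lists were chosen with earlier results of these data known. Named genes are all members, list genes past 1.5-fold with at least 200 UMIs (up to 4, or the extremes where under 2 passed), and the 3 with the highest r per member. Some genes of these lists and marker sets are not reported here, and the 3-gene oligodendrocyte sum was chosen after seeing the data. The other genes and subclusters named were chosen after their values were seen. Positions are from GENCODE vM21. Python 3.11.15, numpy 2.4.6, pandas 2.3.3 and scipy 1.17.1 were used.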

Additional observations from a re-analysis of the deposited data

Results flagged for a closer look

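Grm5, Grm7 and Grm8 had log2 ratios of HET over WT on opposite sides of 0 in different clusters, each with an interval clear of 0. With 1 library per genotype the difference between clusters was not tested. Grm8 was 1.85 (0.76 to 3.01) in endo, from 12 and 21 UMIs, and -0.75 (-1.01 to -0.50) in astro. Its interval lay above 0 in 7 clusters and below 0 in 1. Grm7 was 1.93 (1.19 to 2.78) in neuron.5, from 15 WT UMIs, and -0.26 (-0.36 to -0.16) in neuron.3. Within subcluster 13, the one part of neuron.3 with at least 30 nuclei in each library, Grm7 was 0.09. Grm5 was 1.53 (0.71 to 2.50) in neuron.5, from 12 WT UMIs, and -0.13 (-0.25 to -0.01) in neuron.3. Within subcluster 13 it was 0.03 (-0.09 to 0.14), so the lower Grm5 level of neuron.3 was not seen there. In subcluster 27, with 14 WT and 100 HET nuclei, Grm5 was at 567 and 451 CPM (-0.33, -0.71 to 0.07).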

How the results depend on the processing

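Over all nuclei Grm3, Grm4 and Grm8 stayed higher in the HET under every alternative run. With clusters weighted by their share of the UMIs of both libraries, Grm3, Grm5, Grm7 and Grm8 had log2 ratios of 0.40, 0.20, 0.15 and 0.29. With the median of all genes set to 0 they had 0.61, 0.15, 0.17 and 0.58, and the medians of the Gq arm, Gi/o arm, scaffold and glutamate uptake lists were 0.26, 0.26, 0.12 and 0.10. As means over nuclei of CPM, Grm2, Grm3, Grm4, Grm5, Grm7 and Grm8 had -0.15, 0.65, 0.59, -0.04, 0.10 and 0.32, so the directions of Grm2 and Grm5 turned. Without neuron.5, Grm5 and Grm7 had 0.07 and 0.08, and without the 5% highest doublet scores Grm7 had 0.09. The mean of the uptake list was 0.01. Pairs of a member and a cluster at least 1.5-fold lower in the HET numbered 1 with subclusters weighted by their share of the UMIs of both libraries. They numbered 4 without the highest doublet scores, against 2, while those higher ranged from 16 to 19, against 17. Of 403 values for single clusters, 357 stayed within the counting interval and 46 left it, and no called value changed sign. The Grm8 log2 ratio of 1.69 in epend.1 became 0.46 without the 5% highest doublet scores and 0.90 as a mean over nuclei of CPM. Under the other settings run for it, that ratio stayed between 1.68 and 1.72. Keeping nuclei with 2 matching labels was chosen after seeing the data. Thinning to 1000 and 2000 UMIs lowered the shares of neuronal nuclei with a UMI to 0.235% and 0.474% for Grm2, 18.1% and 31.1% for Grm3, 2.30% and 4.30% for Grm4, 57.1% and 74.6% for Grm5, 62.3% and 77.0% for Grm7 and 27.7% and 40.2% for Grm8. Of the 15 genes named as most like a member, 6 were also among the 3 highest by Spearman rank correlation. The cause of these moves was not tested. No paired analysis was possible because each genotype had 1 library.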
